A study of Homo sapiens with 8 samples.

Results

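Cancer-testis antigens of the MAGE-A, MAGE-B, MAGE-C, GAGE, PAGE, XAGE, SSX, CT45 and NY-ESO-1 (CTAG) families, with PRAME, were examined in RNA-Seq of Caco-2, an established cell line from a human colorectal adenocarcinoma. Members were chosen by symbol: a family name followed by a number, or CT45A, CTAG1, CTAG2 or PRAME, with symbols ending in P left out and the entry of highest mean kept where a symbol stood on more than 1 entry. This gave 75 of the 63816 gene entries. Only 3 of the 75, *XAGE3*, *XAGE2* and *PAGE4*, reached 1 TPM (transcripts per 1000000 transcripts, a level per transcript length) in any sample, and the same 3 were the only members among the 15590 entries tested. The level in these samples was therefore used to sort the members, and which ones stand above 1 TPM is a description. *PAGE4*, the member just inside that limit, had a lowest value of 233 TPM, and *SSX7*, the member just outside, had a highest value of 0.515 TPM.

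Both groups were Caco-2 cells, which lack Siglec-XII, stably transfected with pcDNA3.1 and selected as stable clones. The 4 control samples carried the empty vector and the other 4 carried the vector with *SIGLEC12*, so that a difference between the groups and a difference between the transfections cannot be told apart. The study asked what forced expression of Siglec-XII, a receptor that cannot bind sialic acid, does to carcinoma cells. The description of the series speaks of fewer cultures than the samples listed and the methods speak of technical replicates, so all p-values measure only the spread between these libraries, which may be technical.

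Cancer-testis antigens are made in germ cells, some also in the placenta, and are silent in most adult tissues. Many lie on the X chromosome as tandem copies whose promoters are held silent by DNA methylation, and they reappear in tumors. There T cells can see their peptides on HLA class I, which made MAGE-A3, NY-ESO-1 and PRAME targets of immunotherapy. XAGE, PAGE and GAGE proteins are small relatives of one another, whereas MAGE proteins bind ubiquitin ligases and SSX proteins are chromatin-binding repressors.

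The transfected gene separated the libraries as labelled. *SIGLEC12* lay between 0.0399 and 0.122 TPM in the 4 empty-vector samples and between 1582 and 1734 TPM in the 4 *SIGLEC12* samples, a difference of 10.59 on the log2(TPM + 1) scale (two-sided exact permutation test, p = 0.0286, the smallest 4 against 4 can give). Of 13 markers of colon epithelium 5 averaged at least 1 TPM, with *KRT8* at 4260, *KRT18* at 3183, *EPCAM* at 553, *CDX1* at 147 and *CDX2* at 40.6 TPM. Another 6 stayed under 1 TPM in every sample, among them *KRT20* and *FABP1*, which were listed at 0 throughout. The rest averaged under 1 TPM but reached it in some library. The cells thus carried the general epithelial and caudal homeobox markers while the other markers of the list were low or at 0. Among these were the intestinal genes *VIL1* at 0.641, *LGALS4* at 0.351 and *CDH17* at 0.0604 TPM on average. These low values, beside the levels of *GATA3*, *HSD3B1* and *KRT7* given with the trophoblast markers, go in part against the colon label, and the statements on levels hold for these libraries, labelled Caco-2. Each library held between 15513 and 15934 entries of at least 1 TPM, and the number of reads behind a value is unknown.

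The 3 expressed members are encoded on chromosome X (GRCh37 coordinates). *PAGE4* (ENSG00000101951) spans positions 49593863 to 49598867 on the plus strand. *XAGE2* (ENSG00000155622) spans 52112164 to 52118823, also on the plus strand. *XAGE3* (ENSG00000171402) spans 52891554 to 52897114 on the minus strand, and its relative *XAGE5* (ENSG00000171405), which was not expressed, spans 52840311 to 52847325 on the plus strand. *XAGE2* and *XAGE3* are known from placenta and *PAGE4* from prostate and the female reproductive tract.

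The 250 bases before the most upstream RefSeq start of these genes are shown because 3 of the 4 genes were abundant and the other, beside *XAGE3* in the genome, was near 0. Letters are 5′ to 3′ on the strand of the gene, from the RefSeq table on GRCh38.p14, each found once in GRCh37 at the position given. Capitals mark CATTCC or its reverse complement GGAATG, the core letters of sites of TEAD factors, which act in trophoblast. The 4 windows lie at chrX:52897115-52897364 (*XAGE3*, minus), chrX:52111914-52112163 (*XAGE2*, plus), chrX:52840061-52840310 (*XAGE5*, plus) and chrX:49593613-49593862 (*PAGE4*, plus).
XAGE3: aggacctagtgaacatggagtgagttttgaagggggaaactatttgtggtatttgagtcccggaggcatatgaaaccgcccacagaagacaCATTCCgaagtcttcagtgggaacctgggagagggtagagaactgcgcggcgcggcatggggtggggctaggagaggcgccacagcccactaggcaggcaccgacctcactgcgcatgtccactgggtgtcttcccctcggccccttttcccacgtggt
XAGE2: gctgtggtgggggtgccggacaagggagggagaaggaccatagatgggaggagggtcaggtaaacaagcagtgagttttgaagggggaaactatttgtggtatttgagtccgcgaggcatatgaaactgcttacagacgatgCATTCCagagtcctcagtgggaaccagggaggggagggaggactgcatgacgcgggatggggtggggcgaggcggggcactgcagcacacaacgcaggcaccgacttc
XAGE5: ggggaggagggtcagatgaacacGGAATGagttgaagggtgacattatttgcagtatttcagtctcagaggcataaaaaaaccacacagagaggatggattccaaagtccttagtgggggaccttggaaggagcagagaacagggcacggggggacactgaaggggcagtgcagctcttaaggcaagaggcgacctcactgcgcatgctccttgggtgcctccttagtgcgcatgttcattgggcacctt
PAGE4: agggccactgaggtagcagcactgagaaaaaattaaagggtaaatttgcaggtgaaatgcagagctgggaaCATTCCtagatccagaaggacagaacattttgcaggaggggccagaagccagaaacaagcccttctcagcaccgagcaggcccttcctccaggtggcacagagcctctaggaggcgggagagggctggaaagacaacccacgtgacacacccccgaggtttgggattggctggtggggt

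The printed window of *XAGE3* precedes the start of the gene, whereas the transcript named in the table begins further downstream, with a first exon at 52896281 to 52896332. The same holds for *XAGE5*, whose named transcript has its first exon at 52841228 to 52841662. CATTCC stood 159 bases before the start of *XAGE3*, 108 before that of *XAGE2* and 179 before that of *PAGE4*, and on the opposite strand 227 bases before that of *XAGE5*. These letters, searched on both strands and chosen after the sequences had been seen, also occurred in 11.95% of the 27305 RefSeq promoter windows of this length and in 7 of the 58 member windows (12.07%). They were thus as common among the members as among all genes. The windows of each expressed member held them, as did those of the low members *XAGE5*, *MAGEB6*, *MAGEC3* and *PAGE1*. In *XAGE5* they lay on the other strand and further from the start, so they are not the same site as in *XAGE3* and *XAGE2*. The part of these letters in the levels was not tested.

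With gaps counted, the windows of *XAGE3* and *XAGE5* were 66.3% identical over 267 positions, and those of *XAGE3* and *XAGE2* 55.5% over 301. Without gaps, 177 of 233 paired bases were identical for *XAGE3* and *XAGE5*, and 167 of 199 for *XAGE3* and *XAGE2*. Which pair is closer thus depends on whether gaps are counted. The windows of *XAGE3* and *XAGE2* held 12 and 10 CpG dinucleotides, against 5 for *XAGE5* and 4 for *PAGE4*, with a median of 10 over all windows and of 8 over the members. DNA methylation was not measured here. Other letters differed by family. TGCGCA, the core of NRF1 sites, was in 24 of the 58 member windows (41.4%) against 7.08% of all, and these included all 12 *GAGE* windows, which are near copies of each other. GATAA, the letters bound by GATA factors, was in 18 member windows (31.03%) against 21.02% of all, again with all 12 *GAGE* windows. GCCNNNGGC, an AP-2 site, was in 4 member windows (6.90%), each of a *MAGEB* gene, against 19.6% of all windows, and the ETS core CGGAAG was in 5 (8.62%) against 16.7%. None of the expressed 3 held GATAA, GCCNNNGGC or CGGAAG in this window, each of which most windows of all genes also lack. TGCGCA was in the window of *XAGE3* and in that of *XAGE5*, and not in those of *XAGE2* and *PAGE4*.

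The transcripts of the 3 expressed members were short and alike in their exons. Each named transcript had 5 exons, with 489 bases for *XAGE3* (333 coding), 627 for *XAGE2* (333 coding) and 487 for *PAGE4* (306 coding). Exons 2, 3 and 4 were 89, 106 and 126 bases long in both *XAGE3* and *XAGE2*, and the fourth exon of *PAGE4* was also 126 bases long. An exon of 126 bases occurred in 19 of the 22 *GAGE*, *PAGE* and *XAGE* members with exons in the annotation. The transcripts of *XAGE3* and *XAGE2* were 66.9% identical over their alignment, gaps counted, and those of *XAGE3* and *PAGE4* 62.5%. Of the 31-base stretches of each gene, 100% were found in no other gene for *PAGE4*, 94.1% for *XAGE2* and 89.8% for *XAGE3*, so that few reads of the 3 could have been divided with another gene.

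*XAGE3* was the most abundant member in every sample. Its levels were 1124, 1114, 1193 and 1233 TPM in empty-vector samples 1 to 4 and 1164, 1164, 1227 and 1210 TPM in *SIGLEC12* samples 1 to 4. The groups overlapped along most of their range, with means of 1166 ± 56.8 and 1191 ± 32.1 TPM (SD, n = 4 each). *XAGE3* ranked between 108 and 130 of all entries in the 8 libraries.

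*XAGE2* was next, at 768, 803, 792 and 851 TPM in empty-vector samples 1 to 4 and at 710, 727, 763 and 720 TPM in *SIGLEC12* samples 1 to 4. The groups did not overlap: every *SIGLEC12* sample lay below every empty-vector sample, by a gap from 763 to 768 TPM at the nearest pair. The means were 803 ± 34.7 and 730 ± 22.9 TPM (SD, n = 4 each), and the rank lay between 171 and 197.

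*PAGE4*, which encodes a disordered stress-response protein of prostate cells, stood at 315, 252, 305 and 347 TPM in empty-vector samples 1 to 4. In *SIGLEC12* samples 1 to 4 it stood at 255, 233, 299 and 277 TPM. The groups overlapped, with empty-vector sample 2 below 3 of the *SIGLEC12* samples. Means were 305 ± 39.7 and 266 ± 28.7 TPM (SD, n = 4 each), and the rank lay between 408 and 662.

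**Figure D1:**
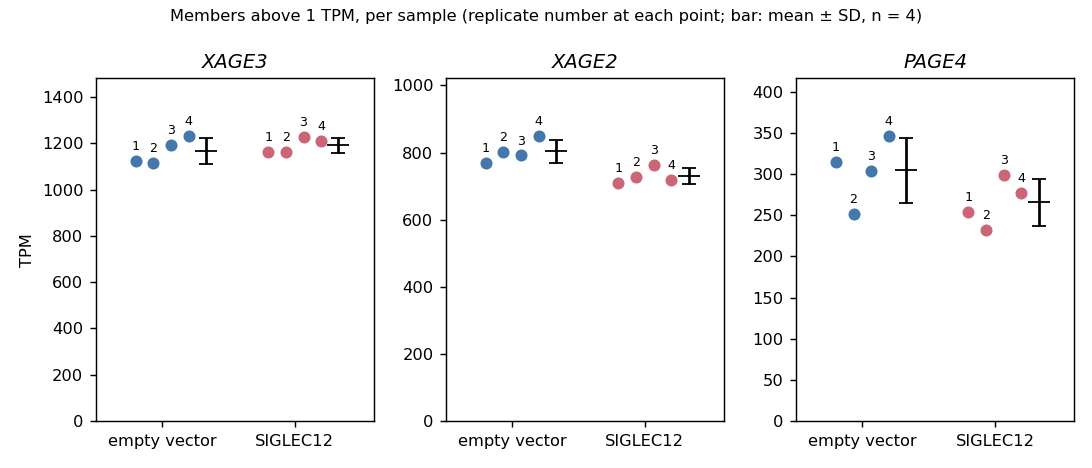
Levels in TPM (y axes from 0) of the 3 members above 1 TPM in each library, empty vector in blue and *SIGLEC12* in red, with the replicate number at each point and the mean ± SD (n = 4) beside each group. The groups do not overlap for *XAGE2* (768 to 851 against 710 to 763 TPM) and overlap for *XAGE3* and *PAGE4*.

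The order *XAGE3*, *XAGE2*, *PAGE4* held in all 8 libraries, and the ranges did not touch: 1114 to 1233, 710 to 851 and 233 to 347 TPM. Together the 3 made up 99.9% of the summed TPM of all members in each library, and the members in all made up 0.212% to 0.243% of a library's TPM. Messages of these 3 genes were thus among the more abundant in these libraries while the rest of the families stayed near 0.

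No member passed the test between groups. By limma on log2(TPM + 1), fitted to all 15590 entries with Benjamini-Hochberg adjustment, 0 of the 3 tested members had an adjusted p under 0.05, against 101 entries or 0.648% of all tested. *XAGE2* differed by -0.14 (SE 0.04, 95% confidence interval -0.24 to -0.04, *SIGLEC12* minus empty vector), which corresponds to -9.12%, with an unadjusted p of 0.0123 and an adjusted p of 0.189. *PAGE4* differed by -0.19 (SE 0.10, interval -0.43 to 0.04, adjusted p = 0.389) and *XAGE3* by 0.03 (SE 0.05, interval -0.07 to 0.14, adjusted p = 0.775). For *PAGE4* the data therefore leave room for a difference of -25.7% to 3.01%, and for *XAGE3* of -4.90% to 9.86%.

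*XAGE2* was 1 of 3 tested members with groups that did not overlap, against 10.8% of all entries tested in either direction and 1.68% with the *SIGLEC12* samples lower. An unadjusted p under 0.05 was reached by 1 of 3 members, against 16.5% of all entries in either direction and 2.61% lower. The median difference of all entries tested was 0.07, with the middle 90% between -0.24 and 0.33, so *XAGE2* and *PAGE4* lay on the lower side of the distribution but inside it. After quantile normalization of the libraries the groups of *XAGE2* overlapped, and without empty-vector sample 2 those of *PAGE4* did not, with a difference of -0.28 (adjusted p = 0.1497).

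**Figure D2:**
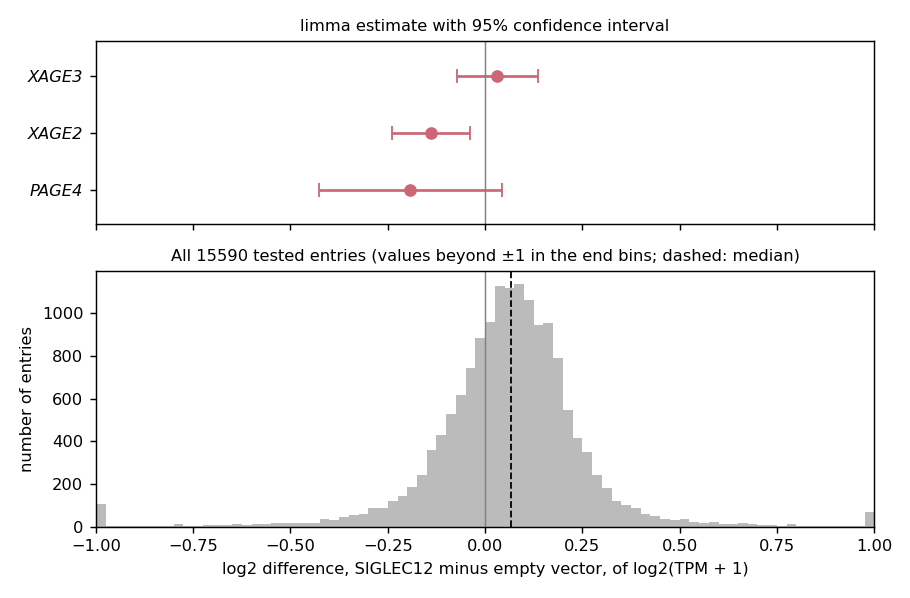
Difference of group means of log2(TPM + 1), *SIGLEC12* minus empty vector (x axis), with limma 95% confidence intervals for the 3 members above and the number of entries per bin for all 15590 tested entries below. The interval of *XAGE2* (-0.24 to -0.04) lies below 0, those of *XAGE3* and *PAGE4* include 0, and the median of all entries (dashed) is at 0.07.

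Ratios within a library do not change when all its values are multiplied by the same factor. Quantile normalization can change them, and they were not formed after it. The level of *XAGE2* relative to *XAGE3* was 0.683, 0.721, 0.664 and 0.690 in empty-vector samples 1 to 4 and 0.610, 0.624, 0.622 and 0.595 in *SIGLEC12* samples 1 to 4. The groups did not overlap, at 0.689 ± 0.0236 against 0.613 ± 0.0134 (SD, n = 4 each), so the 2 *XAGE* genes stood in unequal proportion in the 2 sets of libraries. *PAGE4* relative to *XAGE3* was 0.261 ± 0.0262 against 0.223 ± 0.0185, and *PAGE4* relative to *XAGE2* was 0.379 ± 0.0453 against 0.364 ± 0.0327, and in both ratios the groups overlapped. These ratios were formed after the values were known and were not tested.

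The other 72 members stayed under 1 TPM in every sample. Of these, 35 were listed at 0 in all 8 libraries and 37 had a value above 0 in at least 1, of which 2 never reached 0.001 TPM. A value above 0 was found in exactly 1 library for 16 of the 37 and in all 8 libraries for 2, *SSX7* and *MAGEA10*. Only 18 reached 0.1 TPM in any library. Groups without overlap need a value above 0 in every library of 1 group, which of the 72 only *SSX7* and *MAGEA10* had. For both of these the groups overlapped, and for the others the outcome was fixed by their values of 0. In a fit without the filter on low values, 0 of the 37 had an adjusted p under 0.05, against 0.129% of the 39568 entries in that fit. An unadjusted p under 0.05 was reached by 0 of the 37, against 8.93%. For the 16 with a value above 0 in exactly 1 library, this outcome too was largely fixed by their values of 0. *GAGE* copies with identical values also count separately, so neither count is a result about the members.

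**Figure D3:**
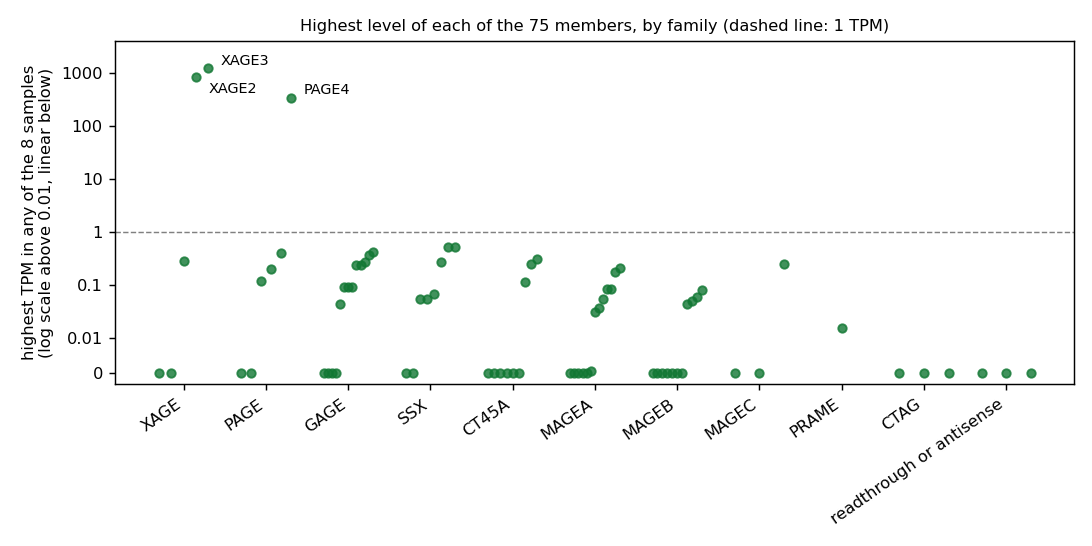
Highest TPM reached in any of the 8 libraries by each of the 75 members (points), by family, on a log scale above 0.01 TPM and a linear one below. *XAGE3*, *XAGE2* and *PAGE4* stand between 347 and 1233 TPM and every other member lies below the dashed line at 1 TPM, at 0.515 TPM or less.

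Among the type I MAGE genes, whose products bind ubiquitin ligases, all 27 numbered members stayed near 0. Of the 13 *MAGEA* genes 5 were at 0 throughout, among them *MAGEA1*, *MAGEA6* and *MAGEA12*, and the highest value was 0.206 TPM for *MAGEA9B*. *MAGEA10* was above 0 in every library, at 0.0201, 0.0654, 0.0696 and 0.0613 TPM in empty-vector samples 1 to 4 and 0.1797, 0.134, 0.0432 and 0.0466 TPM in *SIGLEC12* samples 1 to 4, with overlapping groups. Of 11 *MAGEB* genes 7 were at 0 and the highest value was 0.0799 TPM for *MAGEB17*. *MAGEC2*, the partner of TRIM28, ranged from 0 to 0.249 TPM, and *MAGEC1* and *MAGEC3* were at 0. Summed over the family, *MAGEA* transcripts gave 0.174 ± 0.0488 TPM in empty-vector and 0.189 ± 0.0801 TPM in *SIGLEC12* samples (SD, n = 4 each), *MAGEB* 0.0341 ± 0.0405 and 0.0563 ± 0.0702, and *MAGEC* 0.0852 ± 0.112 and 0.0372 ± 0.0335.

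The *SSX* genes, known from the fusion with SS18 in synovial sarcoma, held the highest of the low values. *SSX7* stood at 0.391, 0.189, 0.402 and 0.0443 TPM in empty-vector samples 1 to 4 and at 0.515, 0.229, 0.280 and 0.403 TPM in *SIGLEC12* samples 1 to 4. The groups overlapped between 0.229 and 0.402 TPM. *SSX5* was at 0.512 TPM in empty-vector sample 4 and at 0 in the other 7 libraries, *SSX2* and *SSX2B* were at 0 throughout, and the family summed to 0.490 ± 0.225 and 0.451 ± 0.130 TPM (SD, n = 4 each).

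The *GAGE* genes are near-identical tandem copies, so the level of 1 copy is uncertain and the sum over the 13 copies is the safer value. That sum was 0.288, 0, 0 and 0.0186 TPM in empty-vector samples 1 to 4 and 0.376, 0.435, 0.454 and 0.528 TPM in *SIGLEC12* samples 1 to 4. The groups did not overlap, at 0.0765 ± 0.141 against 0.448 ± 0.0627 TPM (SD, n = 4 each), but every sum was below 1 TPM, no test was made, and the nearest pair of libraries lay at 0.288 and 0.376. Different copies carried the sum in different libraries. *GAGE12E* held all 0.376 TPM of *SIGLEC12* sample 1, *GAGE2E* held 0.417 TPM of sample 2, and *GAGE12F* and *GAGE12G*, with identical values in every library, held 0.235 TPM each of sample 4. *GAGE2A* was at 0.268 TPM in empty-vector sample 1 and at 0 in the other 7 libraries.

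The remaining *PAGE* and *XAGE* genes did not follow their expressed relatives. *XAGE5* was at 0.142, 0.0780, 0 and 0.0726 TPM in empty-vector samples 1 to 4 and at 0.281, 0, 0.153 and 0.0826 TPM in *SIGLEC12* samples 1 to 4, with overlapping groups. *XAGE1A* and *XAGE1B* were at 0 throughout. *PAGE2* reached 0.401 TPM and *PAGE2B* 0.204 TPM, each at 0 in most libraries. As sums, *XAGE* gave 1970 ± 85.7 and 1921 ± 51.2 TPM and *PAGE* 305 ± 39.7 and 266 ± 28.7 TPM (SD, n = 4 each), with overlapping groups for both.

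The targets of immunotherapy were at or near 0. *CTAG1A*, *CTAG1B* and *CTAG2*, which encode NY-ESO-1 and its relative LAGE-1, were at 0 in all 8 libraries. *PRAME*, a substrate receptor of a CUL2 ubiquitin ligase, stood on 2 entries with identical values and was above 0 in 1 library only, at 0.0152 TPM. *MAGEA3* and *MAGEA4* were each above 0 in 1 library, at 0.0840 and 0.0842 TPM. Of the 9 *CT45A* genes 5 were at 0 and the highest value was 0.315 TPM for *CT45A7*. The 3 readthrough or antisense entries that the rule also takes, *MAGEA10-MAGEA5*, *MAGEA8-AS1* and *MAGEA4-AS1*, were at 0.

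Values above 0 among the 72 low members were found for 7, 12, 7 and 10 genes in empty-vector samples 1 to 4 and for 11, 12, 17 and 16 in *SIGLEC12* samples 1 to 4. Their summed level was 1.05, 0.708, 1.34 and 1.61 TPM and 1.96, 1.33, 1.61 and 1.69 TPM in the same order. Both measures overlapped between the groups. By group 6 genes were above 0 in empty-vector libraries only, 16 in *SIGLEC12* libraries only and 15 in both. *GAGE* copies with identical values count separately among the 16. The same split was not taken over all low entries, so it is unknown whether the members differ from them. Library depth, which sets how many low genes are seen, is unknown and its part in these counts was not tested. Of the 65 low members with their named transcript in the annotation, 33 had fewer than 50% of their 31-base stretches to themselves, 16 had none and 18 had over 90%, and 7 members shared their whole set of values with another (*GAGE12C*, *GAGE12D* and *GAGE12H*, *GAGE12F* and *GAGE12G*, *SSX4* and *SSX4B*). Reads divided among the members of a family remain in its sum, but those given to a symbol ending in P do not, such as *CT45A11P* at 0 to 0.203 TPM. Reads given to the other entry of *PRAME*, or to an entry outside the families that shares stretches with a member, are also left out. The sums stayed under 1 TPM in every library for each family other than *XAGE* and *PAGE*.

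The expressed members did not lie in a stretch of expressed relatives. Within 500 kb of *PAGE4*, 12 of 19 other protein-coding genes were members, all under 0.05 TPM on average, among them the *GAGE* cluster 230 to 434 kb before it, and the highest neighbor was *CCDC22* at 6.91 TPM. Within the same distance of *XAGE2* lay *XAGE1A* and *XAGE1B*, both at 0, and the ubiquitous *MAGED1* at 75.98 TPM. Around *XAGE3*, 6 of 12 neighbors averaged at least 1 TPM, led by the histone demethylase gene *KDM5C* at 39.8 TPM, while the 4 members there, *SSX7*, *SSX2*, *SSX2B* and *XAGE5*, averaged 0.307 TPM or less. The lowest coordinate of *XAGE5* lay 51.2 kb below that of *XAGE3*, which is on the minus strand, and *XAGE5* averaged 0.101 TPM. These are mean levels over all 8 samples.

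**Figure D4:**
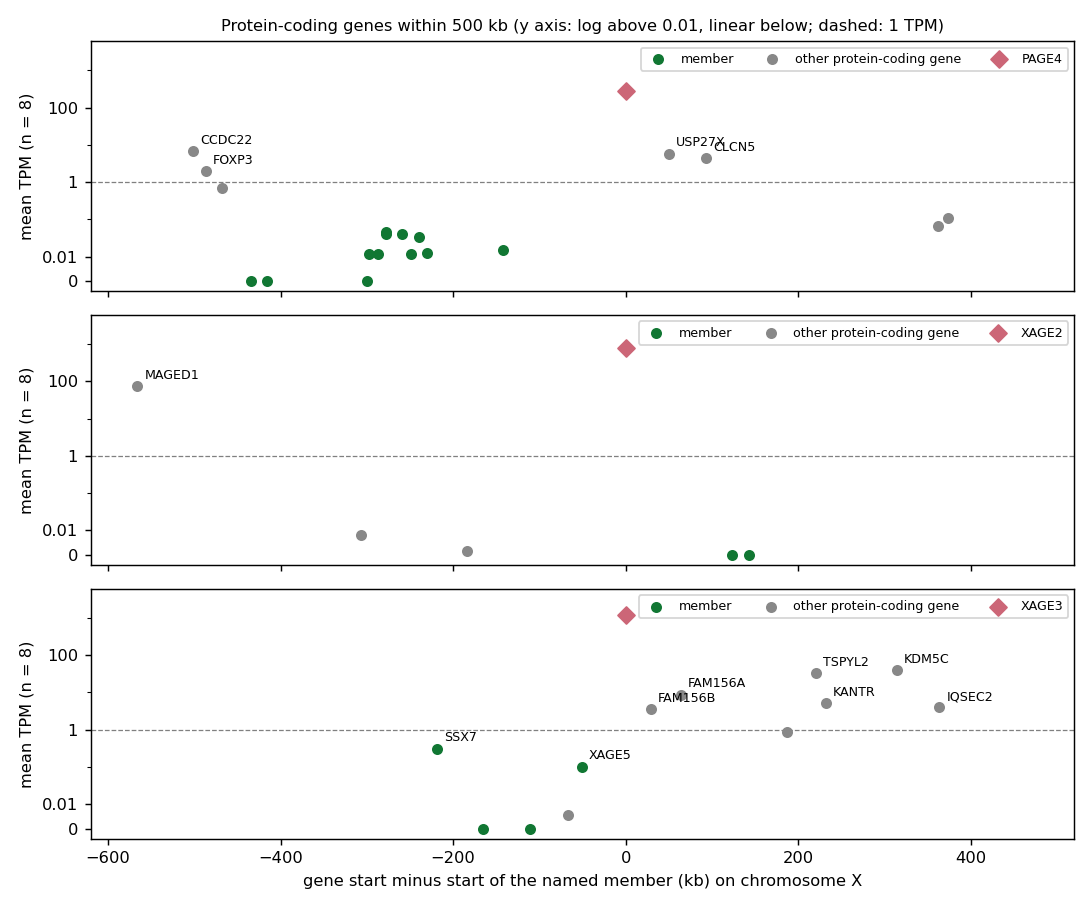
Mean TPM over 8 samples (log scale above 0.01, linear below) of protein-coding genes within 500 kb of *PAGE4*, *XAGE2* and *XAGE3*, with members in green, other genes in grey and the named member as a red diamond. The x axis is the distance in kb between the lowest coordinates of the genes, whatever their strand. Each expressed member stands alone at the top of its panel, and all other members in the panels lie below the dashed line at 1 TPM.

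Genes known to share the biology of the families were read from lists of other cancer-testis genes, of regulators and of partners. Of 45 other cancer-testis genes on the X chromosome 43 stayed under 1 TPM in every sample, as did all 23 genes of the *PRAME* family on chromosome 1. Of 76 cancer-testis genes on autosomes 23 were tested, and 0 were called in either direction, with *IGF2BP3*, an RNA-binding protein gene, the most abundant at 71.9 TPM. The ubiquitous *MAGE* genes, which are not confined to testis, gave 5 tested of 11, led by *MAGED2* at 82.5, *MAGED1* at 75.98 and *MAGEF1* at 56.2 TPM. *MAGED1* differed by 0.16 (SE 0.06, adjusted p = 0.234).

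Genes of DNA methylation and of repressive chromatin were expressed, and whether they act on these promoters was not measured. The methylation list holds enzymes that add methyl groups and enzymes of their removal, such as *TET3*, so its counts mix both. Of 21 genes of the DNA methylation machinery 19 were tested and 0 were called (limma, adjusted p under 0.05, against 0.648% of all entries). Among them 18 of 19 had a positive difference, with a median of 0.11 against 0.07 over all entries, and 7 had an unadjusted p under 0.05, all higher. Over all entries tested 68.1% had a positive difference, and 13.9% had an unadjusted p under 0.05 with the *SIGLEC12* samples higher. The maintenance methyltransferase *DNMT1* averaged 140 TPM and differed by -0.02 (SE 0.13, adjusted p = 0.956). The *de novo* enzymes *DNMT3A* and *DNMT3B* averaged 42.9 and 90.8 TPM and differed by 0.19 (adjusted p = 0.245) and 0.11 (adjusted p = 0.232), and *UHRF1*, which brings DNMT1 to replicated DNA, averaged 20.2 TPM and differed by 0.16 (adjusted p = 0.240). *CTCFL* (BORIS), a testis relative of CTCF, averaged 0.314 TPM. All 34 repressive chromatin regulators were tested with 0 called, led by *TRIM28* at 774, *CBX1* at 366 and *CBX3* at 299 TPM.

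The partners of MAGE and PRAME proteins were also expressed where the antigens were not. Of 22 partner genes 21 were tested and 0 called, with *TRIM28* at 774, *CUL2* at 51.2 and *TRIM27*, which stands on several entries, at 6.69 TPM in the highest of them. Without empty-vector sample 2, 1 partner passed the test, *SKP2*, a ubiquitin ligase subunit, at 0.29 (adjusted p = 0.0328) against 0.23 (adjusted p = 0.149) with all libraries. Of 19 genes of peptide presentation by HLA class I 17 were tested and 0 called, led by the chaperones *CALR* at 858 and *PDIA3* at 680 TPM and by the light chain *B2M* at 280 TPM. Of the 17, 16 had a positive difference, against 68.1% of all entries tested. The summed list ran from 2023 to 2087 TPM in empty-vector and from 2167 to 2216 TPM in *SIGLEC12* samples, without overlap and not tested. Where a symbol stood on several entries, only the entry of highest mean was used. Peptides on the cell surface were not measured.

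**Figure D5:**
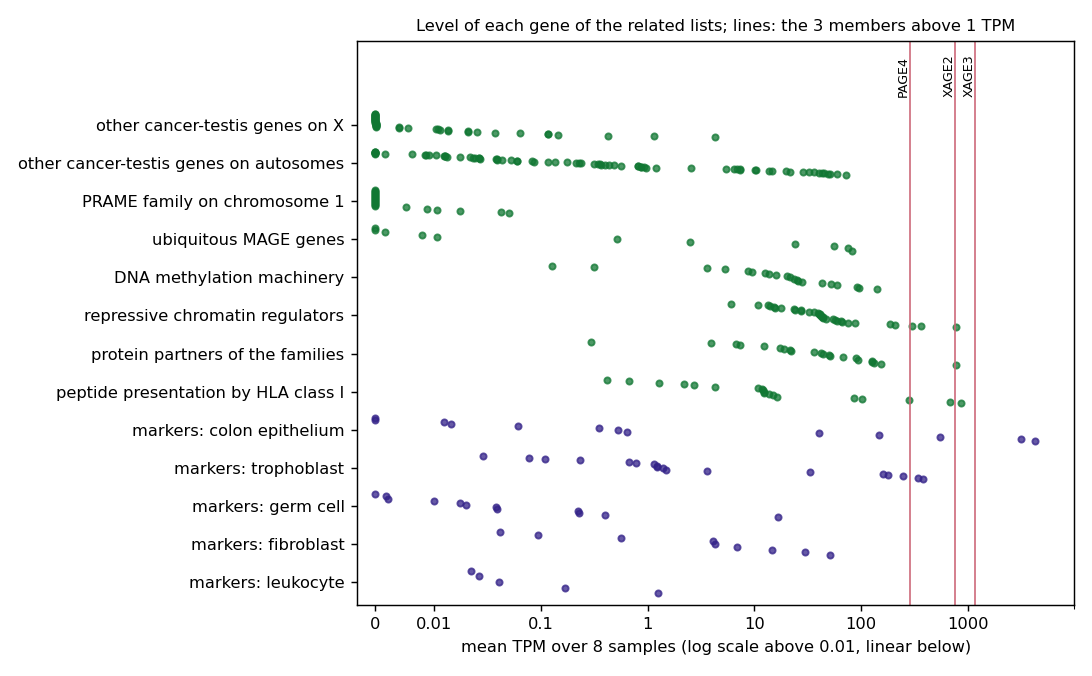
Mean TPM over 8 samples (log scale above 0.01, linear below) of each gene of the related lists in green and of the cell type marker lists in blue, with vertical red lines at the means of *PAGE4*, *XAGE2* and *XAGE3*. Of 45 other cancer-testis genes on the X chromosome 43 lie below 1 TPM in every sample, whereas the 34 repressive chromatin regulators all lie above 1 TPM.

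Because *XAGE2* and *XAGE3* are known from placenta and the families from testis, markers of both were read in the same libraries. Of 18 trophoblast markers 12 averaged at least 1 TPM, led by *GATA3* at 380, *HSD3B1* at 345 and *KRT7* at 247 TPM, with *VGLL1* at 177, *TFAP2C* at 161 and *TFAP2A* at 33.0 TPM. *PSG1*, *PSG3*, *CYP19A1*, *ERVW-1*, *ERVFRD-1* and *PLAC1* were also among the 12. The hormone genes were lower, with *CGA* at 0.785 TPM on average and *CGB3*, *CGB5* and *CGB8* at 0.109 TPM or less. *CGA* still reached 1 TPM in at least 4 samples and was tested. *GCM1* stood at 0.672 TPM, while none of the 18 was at 0 in every sample. The summed markers ran from 1243 to 1426 TPM in empty-vector and from 1298 to 1373 TPM in *SIGLEC12* samples, and 0 of 13 tested were called. Several of these genes are also made by other epithelia. Of 12 germ cell markers 11 stayed under 1 TPM in every sample, including *DDX4* at 0.0198 and *DAZL* at 0.00215 TPM and *PRM1* at 0, with *STK31* at 16.7 TPM the exception.

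Other marker lists bear on the composition of the libraries. The general epithelial keratins *KRT8* and *KRT18* made up 90.9% of the summed colon epithelium markers and ran from 6423 to 7423 TPM in empty-vector samples and from 7906 to 8163 TPM in *SIGLEC12* samples, without overlap. The other 11 markers of the list summed to 710 to 736 and 734 to 792 TPM, with overlap, and 0 of the 5 tested markers were called. Summed fibroblast markers, which include the vimentin gene that cell lines often express, ran from 99.2 to 118 and from 112 to 123 TPM, and leukocyte markers from 0.686 to 2.23 and from 1.16 to 1.89 TPM. In bulk RNA, fewer cells with a message and less message per cell cannot be told apart, and the part of these markers in the lower values of *XAGE2* was not tested.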

How the data were processed

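RNA-Seq of 8 Caco-2 samples (4 empty vector, 4 *SIGLEC12*) was used. The labels name a stranded, rRNA-depleting total RNA kit, 100-base paired reads and about 25 to 40 times 1000000 reads a sample, while the study's methods name a kit that selects poly(A) RNA. The authors quantified reads with kallisto (0.45.0 in the submitters' processing notes) on hg19 and deposited log2(TPM + 1) per gene entry. TPM was taken back from these log2 values. Each column sums to 1000000 TPM, so depth is unknown and no count test or counting interval was possible.

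Entries with at least 1 TPM in at least 4 samples were fitted with limma 3.58.1 in R 4.3.3 (lmFit, eBayes with trend, Benjamini-Hochberg over all entries tested), a script tested on simulated data. A difference on the log2(TPM + 1) scale understates that of low genes. Members and lists were chosen with earlier results of these data known. Any member could be named, members over 1 TPM by sample and others by family. Listed genes were named where an adjusted p was under 0.05, for the 3 of highest mean level, or for a fixed set that acts on or with members. Genes of the marker lists, genomic neighbors and *SKP2* were named after their values were seen. Positions and transcripts came from GENCODE on GRCh37 (69 of 75 members matched, 68 of them on X) and sequences from RefSeq (58 promoters matched). Of 7 symbols left out for their final P, *SSX2IP* (22.3 to 26.3 TPM) is not an *SSX* gene. Replicate numbers of the labels were not taken as pairs, since deviations from the group means correlated at 0.04, 0.0282, -0.0742 and 0.0591 for samples 1 to 4. Pseudocounts, filters, scalings, the replicate block, the variance trend and leaving out each sample were varied.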

Additional observations from a re-analysis of the deposited data

Results flagged for a closer look

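Of 49 groups of 4 values checked, 14 had 1 library set apart from the other 3 by more than Dixon's 95% limit. Chance passes that limit in about 1 in 20 groups of normal values. That rate is no measure here, since a group with 1 value above 0 and 3 at 0 always passes. Low members were checked where a library reached 0.2 TPM, and a member and its family sum can flag the same library. All 14 values lie below 1 TPM. In the empty-vector group the library set apart held *PAGE2* at 0.401 TPM, *SSX5* at 0.512 TPM, *PAGE2B* at 0.204 TPM, *CT45A10* at 0.252 TPM and *GAGE2A* at 0.268 TPM, each against 0 in the other 3 libraries. In the *SIGLEC12* group it held *GAGE2E* at 0.417 TPM (others up to 0.0144 TPM), *GAGE12E* at 0.376 TPM (others 0), *PAGE2B* at 0.152 TPM (others 0), *CT45A7* at 0.315 TPM (others up to 0.0185 TPM) and *CT45A10* at 0.0185 TPM (others 0). Of the family sums, *GAGE* was 0.288 TPM in 1 empty-vector library (others up to 0.0186 TPM), *SSX* 0.825 TPM in 1 (others 0.344 to 0.402 TPM) and *CT45A* 0.252 TPM in 1 (others 0), and *CT45A* was 0.430 TPM in 1 *SIGLEC12* library (others up to 0.0369 TPM). The copies of these families share much of their sequence, and the part of that in which copy received a value was not tested.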

How the results depend on the processing

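The count of members called stayed at 0 under all 16 alternatives. *XAGE2* kept its negative sign in all 16, from -0.20 to -0.11 (adjusted p 0.106 to 0.383, limma), and *PAGE4* from -0.28 to -0.13 (adjusted p 0.1497 to 0.680). *XAGE3* turned to -0.030 (adjusted p = 0.830) with equal upper quartiles and to -0.011 (adjusted p = 0.938) without mitochondrial genes and the 100 most abundant entries. The median difference of all entries, 0.07, was 0.01 after quantile normalization or equal upper quartiles. Members with groups that did not overlap numbered 0 after quantile normalization, 2 without empty-vector sample 2 and otherwise 1, so 1 to 2 when a sample was left out. Listed genes called (118 tested) numbered 0 to 1 when a sample was left out, the 1 being *SKP2* without empty-vector sample 2. With the replicate number as a block, which the pairing check does not call for, 0 members were called (*XAGE2* -0.14, adjusted p = 0.244). Family sums, as differences of log2(sum + 1), moved for *XAGE* from -0.04 to -0.10 (equal upper quartiles), for *GAGE* from 0.44 to 0.57 (without mitochondrial and most abundant entries), and with a pseudocount of 0.1 for *GAGE* to 1.90, *MAGEB* to 0.16, *MAGEC* to -0.30 and *PRAME* to 0.051. With a single sample left out the sign of some low sums turned: *SSX* (-0.03) to 0.07 without empty-vector sample 4 and to 0.03 without *SIGLEC12* sample 3, *MAGEC* (-0.06) to 0.01 without empty-vector sample 4, *CT45A* (0.06) to -0.06 without *SIGLEC12* sample 4, *MAGEB* (0.03) to -0.01 without *SIGLEC12* sample 3, and *MAGEA* (0.02) to as low as -0.01. *XAGE* reached 0.0024 after quantile normalization, and *CT45A* 0.14 with repeats and pseudogenes summed. The *SIGLEC12* difference was 10.57 to 10.62 with a sample left out (exact permutation p = 0.0571, the smallest 3 against 4 can give). The entries called over all genes numbered 101, 49 to 159 with a sample left out, 51 without the filter, 69 with the block and 54 without the trend. Of these, 53, 16 to 111, 21, 18 and 23 were higher. With quantile normalization, equal upper quartiles and without the most abundant entries 86, 82 and 73 were called, 28, 24 and 25 of them higher. Depth is unknown, so values under 1 TPM have no counting error here.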
